A study of Rattus norvegicus with 18 samples.

Results

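The Runx and C/EBP transcription factors were followed through ovulation in rat ovarian follicles. The members were the 7 genes Runx1, Runx2, Cbfb, Cebpa, Cebpb, Cebpd and Cebpg, matched to the array by the single gene symbol of each probe set in the platform annotation. Probe sets carried 6 of the 7 names, out of 14217 genes with a probe set. No probe set carried Runx2 as its only symbol, so its level was not analysed here. The 6 measured genes had 15 probe sets, of which 13 passed the filter on dim values. The other pair, 1 of Cebpa and 1 of Cebpd, lay near background. Each gene is described by its probe set of highest mean level, and these 6 probe sets were above background on all 18 arrays.

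Runx proteins bind DNA through their runt domain as heterodimers with core binding factor beta (Cbfb), which does not bind DNA itself and raises the affinity of its partner. C/EBP proteins are basic leucine zipper factors that bind DNA as dimers with one another. Cebpa and Cebpb are activators with roles in differentiation, Cebpd is an inducible member known from the acute-phase response, and Cebpg lacks a strong activation domain and acts mainly as a dimer partner. In granulosa cells, the cells that line the follicle and become luteal cells, Runx1 and Cebpb are known to be induced by the surge of luteinizing hormone. Cebpa and Cebpb together are known to be needed in these cells for ovulation and luteinization in mice.

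The samples were follicles of Crl:CD(SD) rats cut from frozen ovary sections of 8 micrometres by laser microdissection, 15 follicles for each phase, in 6 groups of 3 samples. Untreated rats gave follicles at 22:00 of proestrus, before rupture (control PeF), and ruptured follicles at 10:00 of estrus (control PoF). Indomethacin (IM), which blocks the cyclooxygenases that make prostaglandins, was given by mouth at 4 mg/kg at 16:00 of proestrus. RU486 (RU), which blocks the receptors of progesterone and of glucocorticoids, was given by mouth at 100 mg/kg at 10:00 of proestrus. Each drug gave follicles of 22:00 (IM PeF, RU PeF) and unruptured follicles of 10:00 the next day (IM UF, RU UF). The 22:00 follicles are peri-ovulatory in the sample titles and pre-ovulatory in the series' design text. At 10:00 drug treatment and failure to rupture cannot be told apart. The labels give 3 animals per treatment and time without tying samples to animals, so each p-value weighs a difference against sample spread, which may be technical. The untreated groups served as controls of both drugs, and those comparisons are not independent of each other.

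The deposited signals were not brought to a common scale between arrays. The median signal ran from 4.4 (control PeF 3) to 27.4 (control PoF 3), and control PeF 3, IM UF 2 and IM PeF 2 were the dimmest arrays. Levels are therefore given as log2 of the quantile-normalized signal plus 2.8, called log2 levels, and a difference is between group means on that scale. Differences were tested with limma over 18155 probe sets. For Gapdh, the 3' probe set exceeded the 5' one on the log2 scale, a gap that widens as RNA degrades, by 2.96 to 4.11 in control PeF and 2.07 to 2.31 in control PoF. The gap was 2.59 to 3.63 in IM PeF, 2.66 to 2.95 in RU PeF, 2.19 to 3.86 in IM UF and 2.86 to 3.27 in RU UF. It thus did not overlap between the times in untreated follicles, and it was smaller in RU PeF than in control PeF and larger in RU UF than in control PoF. Its part in the results was not tested. Granulosa markers were present in every group, with a summed log2 level of 13.2 to 14.5 over 7 measured genes. A summed level is the log2 of the added linear signals of a list, so the brightest genes weigh most in it. Markers of other cells were detected too, with 9 of 10 leukocyte genes and 4 of 5 oocyte genes above background on at least 1 array, the exceptions being Itgam and Bmp15.

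In untreated follicles, 5 of the 6 factors fell between 22:00 and 10:00 and 1, Cbfb, rose, although 4 of those 5 lay higher at 10:00 in the deposited signals. Of all probe sets tested, 39.6% passed in this comparison, 21% higher and 18.5% lower. The samples of both times did not overlap for 6 of 6 members and for 49.1% of all probe sets. The median difference of the members was -0.83, against 0.04 for all probe sets. Few of them differed between drug and control at the same time of day. No member passed for IM at 22:00 (background 0%) or at 10:00 (background 0.033%). At an unadjusted p of 0.05, 0 of the 6 passed in either comparison, against 2074 and 1265 of all probe sets. For RU, 1 member passed at 22:00 (Cebpd, lower; background 7.42%, of which 4.03% lower) and 2 at 10:00 (Runx1 and Cebpd, both lower; background 8.69%, of which 4.47% lower). Between 22:00 and 10:00, 4 members fell and 1 rose under IM (background 33.3%, 16.3% higher and 17% lower), with Cebpd not past the test. Under RU likewise 4 fell and 1 rose (background 38.8%, 19% higher and 19.9% lower), with Cebpb not past the test. The samples did not overlap for 5 of 6 members in each of these time courses, against 46% of all probe sets under IM and 57.6% under RU. RU against IM gave 0 calls at 22:00 (background 5.23%) and 2 at an unadjusted p of 0.05, which 17.3% of all probe sets reached. At 10:00 it gave 3 calls (background 6.95%, 3.49% higher and 3.45% lower), with Runx1 and Cebpd lower and Cbfb higher in RU UF. Between drug and control the samples did not overlap for 3 members for RU at 22:00 (25% of all probe sets), 4 for RU at 10:00 (36.2%), 0 for IM at 22:00 (10.6%) and 1, Cbfb, for IM at 10:00 (17.5%). Between the drugs they did not overlap for 2 members at 22:00 (24.5%) and 3 at 10:00 (31.2%).

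**Figure D1:**
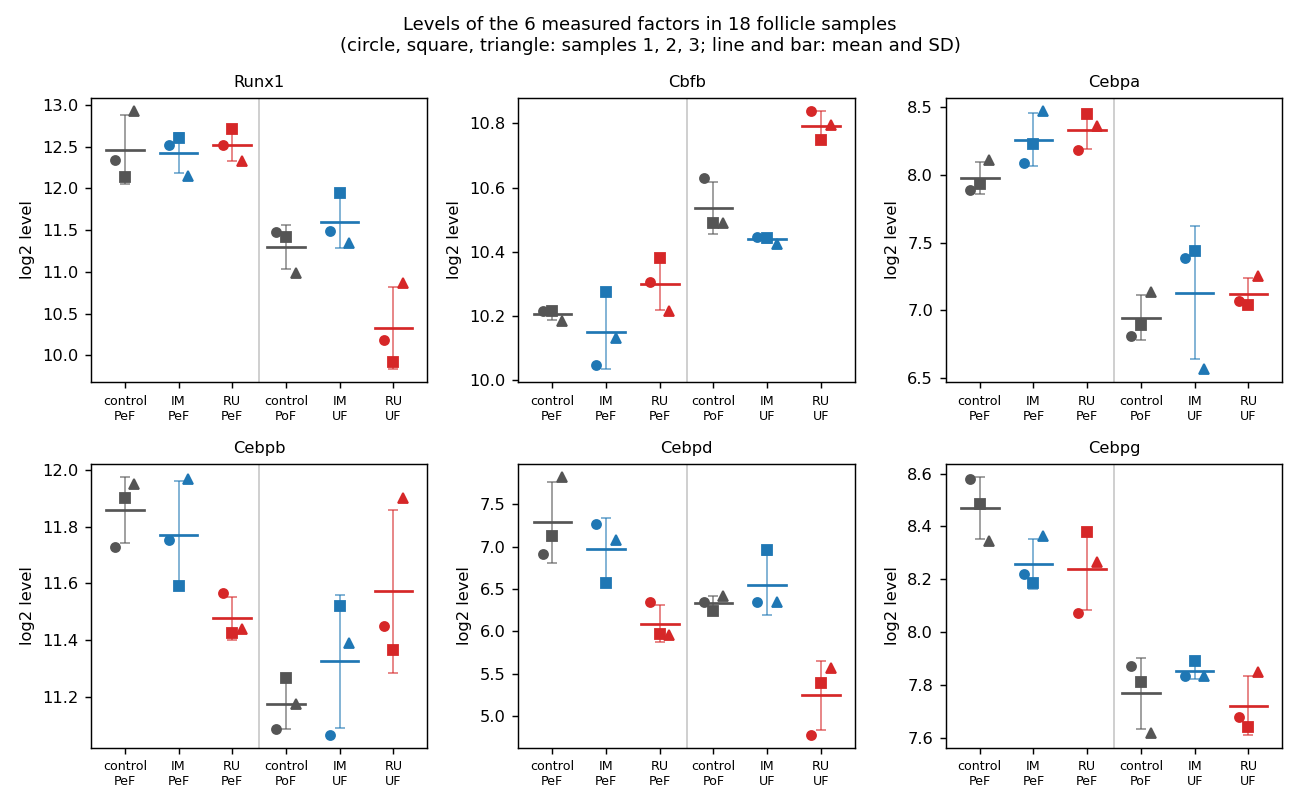
Log2 level of each of the 6 measured factors (y axis, quantile-normalized signal plus 2.8, own range for each gene) in every sample of the 6 groups (x axis), with 22:00 left and 10:00 right of the grey line. Bars are the mean and SD of 3 samples. Runx1 was at 12.42 to 12.52 on average in the 3 groups of 22:00 and at 10.33 in RU UF, and Cebpd was lowest in RU UF at 5.25.

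Runx1, the DNA-binding subunit measured here, was high in all follicles of 22:00 and lower in all follicles of 10:00, most so after RU. Its log2 level was 12.33, 12.13 and 12.93 in control PeF, 12.52, 12.61 and 12.15 in IM PeF, and 12.52, 12.71 and 12.33 in RU PeF. At 10:00 it was 11.47, 11.42 and 10.99 in control PoF, 11.49, 11.94 and 11.35 in IM UF, and 10.19, 9.92 and 10.87 in RU UF. All 9 values of 22:00 lay above all 9 of 10:00, and all 3 of RU UF lay below all of control PoF and IM UF. From highest to lowest the group means ran RU PeF, control PeF, IM PeF, IM UF, control PoF and RU UF. Neighbours in this order passed the test at only 2 steps, from IM PeF down to IM UF and from control PoF down to RU UF.

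With time, Runx1 fell 2.25-fold in untreated follicles (-1.17 ± 0.23, where ± gives the SE of 3 samples against 3, limma adjusted p = 0.000745). Under IM it fell 1.78-fold (-0.83 ± 0.23, limma adjusted p = 0.0107), and without IM UF 3 that call was lost (-0.71, adjusted p = 0.0542). Under RU it fell 4.56-fold (-2.19 ± 0.23, limma adjusted p = 1.28e-06). At 22:00 RU PeF differed from control PeF by only 0.05 (95% interval -0.44 to 0.54) and IM PeF by -0.04 (-0.53 to 0.45). At 10:00 RU UF was 1.96-fold below control PoF (-0.97 ± 0.23, limma adjusted p = 0.0143) and 2.41-fold below IM UF (-1.27 ± 0.23, 0.00283). IM UF stood 0.30 above control PoF (interval -0.19 to 0.79, adjusted p = 0.918). The call of RU UF against control PoF was lost without control PoF 1 (adjusted p = 0.0696), control PoF 2 (0.0628), RU UF 1 (0.0604) or RU UF 2 (0.0899).

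The test of whether the RU difference itself changed between the times gave -1.02 ± 0.33 (interval -1.72 to -0.33) and did not pass in this probe set (limma adjusted p = 0.0952). It passed without control PeF 3 (-1.25, adjusted p = 0.0270), which is the dimmest array, and without RU UF 3 (-1.29, 0.0303). A further probe set of Runx1, 1395442_at beside 1368914_at, gave the same directions with larger sizes. Levels were 9.82, 10.29 and 10.21 in control PeF and 8.34, 8.63 and 8.06 in control PoF, a difference of -1.76 ± 0.24. In RU UF it was 6.61, 6.94 and 7.48, against 9.95 to 10.28 in RU PeF. That is an 8.65-fold fall (-3.11 ± 0.24, limma adjusted p = 4.31e-08). RU UF stood 2.52-fold below control PoF (-1.34 ± 0.24, limma adjusted p = 0.00173), and the change of the RU difference between the times passed in this probe set (-1.35 ± 0.34, 0.0324). No sample of RU UF overlapped control PoF in either probe set, where 36.2% of all probe sets did not overlap.

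Cbfb, the shared partner of all Runx proteins, moved little and against the others in its brightest probe set. Its log2 level was 10.22, 10.22 and 10.19 in control PeF, 10.05, 10.27 and 10.13 in IM PeF, and 10.30, 10.38 and 10.22 in RU PeF. It was 10.63, 10.49 and 10.49 in control PoF, 10.45, 10.44 and 10.43 in IM UF, and 10.84, 10.75 and 10.79 in RU UF. The 3 groups of 10:00 lay above the 3 of 22:00, with RU UF highest. No pair of neighbouring group means passed the test.

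The rise with time was 1.26-fold in untreated follicles (0.33 ± 0.09, limma adjusted p = 0.00674), 1.22-fold under IM (0.29 ± 0.09, 0.0177) and 1.41-fold under RU (0.49 ± 0.09, 0.000268). The IM call was lost without IM PeF 1 (adjusted p = 0.0849) or IM PeF 3 (0.0558). RU UF was 1.28-fold above IM UF (0.35 ± 0.09, limma adjusted p = 0.0203), a call lost when any 1 of those 6 samples was left out (0.0511 to 0.0791). That call held in 19 of 29 alternative settings. It was lost with median scaling, with the deposited signals, with the mean of its probe sets and without the variance trend. RU UF stood 0.26 above control PoF (interval 0.07 to 0.44), which did not pass (adjusted p = 0.0869). The dimmer probe set of Cbfb, 1395821_at beside 1399033_at, went the other way. Levels (log2) were 5.29, 6.29 and 5.93 in control PeF and 5.31, 5.04 and 5.23 in control PoF (-0.64 ± 0.37, limma adjusted p = 0.174, overlapping). It fell from IM PeF to IM UF (-1.31 ± 0.37, 0.0102) and from RU PeF to RU UF (-1.06 ± 0.37, 0.0286). The direction of Cbfb with time therefore depended on the probe set, and with the mean of both it was -0.16 in untreated follicles, -0.51 under IM and -0.29 under RU.

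**Figure D2:**
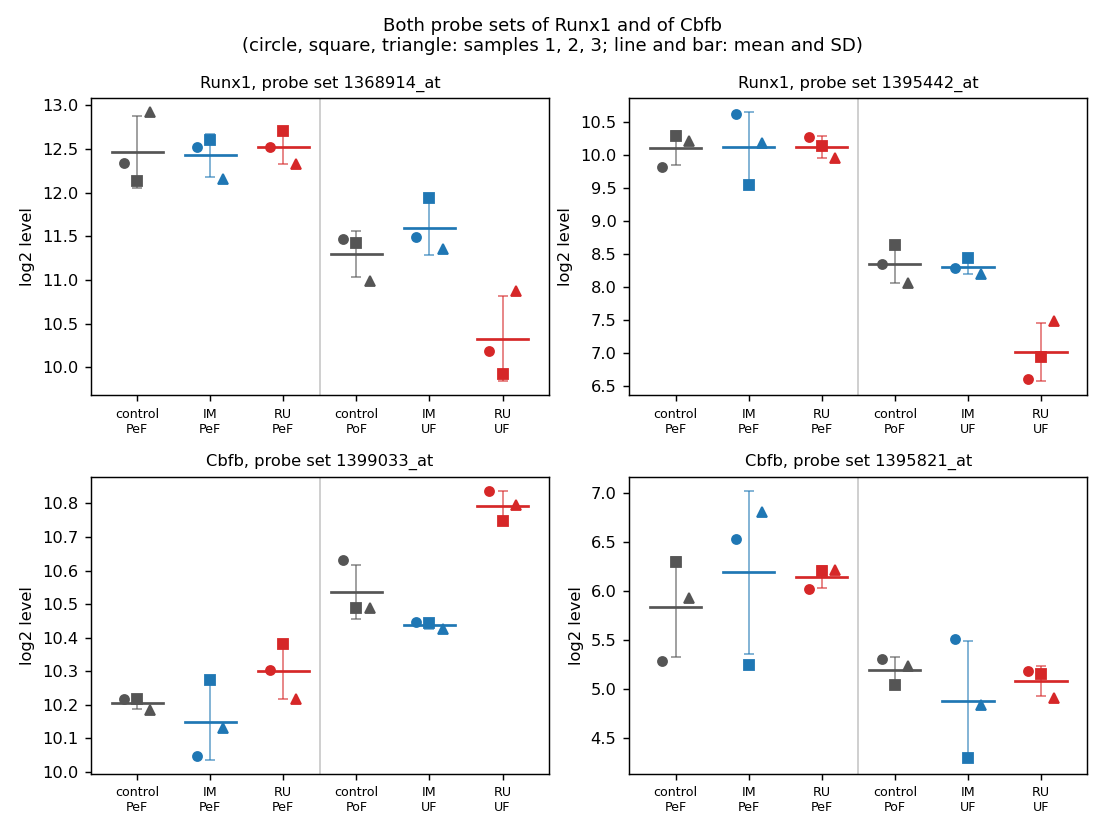
Log2 levels of both probe sets of Runx1 (top) and of Cbfb (bottom) in every sample (y axis, own range for each panel; x axis, the 6 groups; bars are mean and SD of 3). The Runx1 probe sets ran alike, with RU UF lowest in both, while for Cbfb the brighter probe set rose with time and the dimmer one lay lower at 10:00.

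Cebpa, an activator tied to differentiation, stood about 1 log2 unit lower at 10:00 in every treatment. The log2 level was 7.89, 7.93 and 8.11 in control PeF, 8.09, 8.22 and 8.47 in IM PeF, and 8.18, 8.45 and 8.36 in RU PeF. It was 6.81, 6.89 and 7.14 in control PoF, 7.39, 7.44 and 6.57 in IM UF, and 7.07, 7.04 and 7.25 in RU UF. The 9 samples of 10:00 all lay below the 9 of 22:00. The only step between neighbouring group means that passed was the one from control PeF to IM UF (0.84 ± 0.20, limma adjusted p = 0.00245). Cebpa fell 2.04-fold in untreated follicles (-1.03 ± 0.20, limma adjusted p = 0.000507), 2.19-fold under IM (-1.13 ± 0.20, 0.000258) and 2.31-fold under RU (-1.21 ± 0.20, 0.000104).

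At a given time neither drug passed for Cebpa. At 22:00 IM PeF lay 0.28 above control PeF (interval -0.13 to 0.70) and RU PeF 0.35 above (-0.06 to 0.77). At 10:00 the differences from control PoF were 0.18 for IM UF (-0.23 to 0.60) and 0.17 for RU UF (-0.24 to 0.59). All 3 RU PeF samples were above all 3 of control PeF in this probe set, where 25% of all probe sets did not overlap. The other 3 tested probe sets of Cebpa were also higher in RU PeF, by 0.40, 0.73 and 1.01, with limma adjusted p of 0.427, 0.119 and 0.0621. In untreated follicles those 3 lay 0.40 to 0.65 lower at 10:00 and did not pass (limma adjusted p 0.0745 to 0.341).

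Cebpg, the dimerization partner, lies next to Cebpa on the same chromosome, with 0 protein-coding genes between them in the RefSeq annotation of GRCr8. In control PeF the log2 level was 8.58, 8.48 and 8.34, with 8.22, 8.19 and 8.37 in IM PeF, and 8.07, 8.38 and 8.27 in RU PeF. It was 7.87, 7.81 and 7.62 in control PoF, 7.83, 7.89 and 7.84 in IM UF, and 7.68, 7.64 and 7.85 in RU UF. Again all samples of 22:00 lay above all of 10:00. Cebpg fell 1.63-fold in untreated follicles (-0.70 ± 0.13, limma adjusted p = 0.000345), 1.32-fold under IM (-0.40 ± 0.13, 0.0214) and 1.43-fold under RU (-0.52 ± 0.13, 0.00383). The IM call was lost without IM PeF 3 (adjusted p = 0.0907), IM UF 1 (0.0564) or IM UF 3 (0.0579). Its dimmer probe set fell too, by 0.80 in untreated follicles (limma adjusted p = 0.0499), by 1.23 under IM and by 1.26 under RU. In the brighter probe set the differences of Cebpg between drug and control at the same time were between -0.23 and 0.09. The interval that reached farthest from 0 was -0.50 to 0.04 (RU at 22:00). The dimmer probe set went the other way at 22:00, at mean log2 levels of 4.83 in control PeF, 5.16 in IM PeF and 5.38 in RU PeF. It was above background on 2 of 3 arrays of control PeF and passed for neither drug there. The order of group means of the brighter probe set had 1 step that passed, from RU PeF down to IM UF (0.38 ± 0.13, limma adjusted p = 0.0222).

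Cebpb, the activator induced by luteinizing hormone, was the only member called for a change of the RU difference between the times. The dimmer probe set of Runx1 passed that test too. It has 1 probe set, 1387087_at. Its log2 level was 11.73, 11.90 and 11.95 in control PeF, 11.75, 11.59 and 11.97 in IM PeF, and 11.57, 11.43 and 11.44 in RU PeF. It was 11.09, 11.27 and 11.17 in control PoF, 11.07, 11.52 and 11.39 in IM UF, and 11.45, 11.37 and 11.90 in RU UF. RU PeF lay wholly below control PeF and RU UF wholly above control PoF, where 25% and 36.2% of all probe sets did not overlap. With the deposited signals the differences were 0.51 and -0.27. Relative to the median of all probe sets those were -0.26 and 0.40, with the signs of the normalized values. No neighbouring group means differed past the test, and 4 of the 15 pairs of groups did, against 11 of 15 for Runx1.

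Cebpb fell 1.61-fold with time in untreated follicles (-0.68 ± 0.14, limma adjusted p = 0.000914) and 1.36-fold under IM (-0.45 ± 0.14, 0.0203). The IM call was lost without IM PeF 3 (adjusted p = 0.108) or IM UF 1 (0.116). Under RU the difference with time was 0.10 (interval -0.20 to 0.39, adjusted p = 0.629). RU PeF stood 0.38 below control PeF (interval -0.68 to -0.09) and RU UF 0.40 above control PoF (0.10 to 0.69). Neither passed after adjustment (limma adjusted p = 0.104 and 0.0962). The change of the RU difference from 22:00 to 10:00 passed at 0.78 ± 0.20 (limma adjusted p = 0.0335), where 4.02% of all probe sets passed, 2.18% higher. The same test for IM gave 0.24 (interval -0.18 to 0.65, adjusted p = 0.704) and no member passed it (background 0%). The RU call for Cebpb was lost without control PeF 2, any 1 of control PoF 1 to 3, RU PeF 2, RU PeF 3 or RU UF 3 (0.0532 to 0.0854), and the sign turned with the deposited signals (-0.79, where the median of all probe sets was -1.45). The call held in 18 of 29 alternative settings, and not with median scaling, without the filter or without the variance trend.

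The sequence just before the start of Cebpb is shown because cyclic AMP, the messenger of luteinizing hormone, acts through CREB proteins that bind the short motif TGACG. The region is chr3:176816755-176817004 on the plus strand of GRCr8, the 250 bases before the start in RefSeq, 5′ to 3′, with each such motif on either strand in capitals.
Cebpb: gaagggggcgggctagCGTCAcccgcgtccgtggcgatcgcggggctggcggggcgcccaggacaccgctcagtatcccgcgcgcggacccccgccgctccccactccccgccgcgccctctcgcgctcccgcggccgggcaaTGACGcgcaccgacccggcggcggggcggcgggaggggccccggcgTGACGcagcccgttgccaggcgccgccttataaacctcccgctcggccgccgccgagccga
The 3 matches begin at -234 (minus strand), -107 and -61 (both plus strand), counted from the start. At least 1 was in 18.2% of the 33469 RefSeq windows of this length, and 3 or more were in 0.813%. The whole element TGACGTCA was in 1.59% of windows and not in that of Cebpb. The same search covered the Runx motif TGTGGT (14.5% of windows) and the C/EBP motif TTGCNNAA (9.22%), each on both strands. The windows of Runx1, Cbfb, Cebpa and Cebpg held none of these motifs, and that of Cebpb held neither of the last pair. Runx2 has 2 windows, of which the one held a Runx motif at -76 (minus strand) and a C/EBP motif at -44 (plus strand), and the other TGACG at -107 (minus strand). A match describes letters in a window and is not a measured binding site.

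Cebpd, the acute-phase member, was lower after RU at both times. In control PeF the samples stood at log2 levels of 6.91, 7.12 and 7.82, with 7.27, 6.57 and 7.08 in IM PeF, and 6.34, 5.96 and 5.96 in RU PeF. It was 6.34, 6.24 and 6.41 in control PoF, 6.35, 6.96 and 6.35 in IM UF, and 4.78, 5.39 and 5.57 in RU UF. RU PeF lay wholly below control PeF and IM PeF, where 25% and 24.5% of all probe sets did not overlap. RU UF lay below every other sample, and 36.2% of all probe sets did not overlap between RU UF and control PoF. The group means ran from control PeF through IM PeF, IM UF, control PoF and RU PeF to RU UF, and the step from RU PeF to RU UF was the only one between neighbours that passed.

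RU PeF was 2.29-fold below control PeF (-1.19 ± 0.27, limma adjusted p = 0.0122), and RU UF was 2.12-fold below control PoF (-1.09 ± 0.27, 0.0174) and 2.47-fold below IM UF (-1.30 ± 0.27, 0.00663). The RU difference did not change detectably between the times (0.11, interval -0.70 to 0.92). The 22:00 call was lost without RU PeF 2 (adjusted p = 0.0524) or RU PeF 3 (0.0551), and the 10:00 call without control PoF 1 (0.0583), control PoF 3 (0.0652) or RU UF 1 (0.0963). The call at 22:00 held in 23 of 29 alternative settings, and not with median scaling, the deposited signals or a fit of only the groups compared. RU PeF against IM PeF did not pass (-0.88, interval -1.45 to -0.31, limma adjusted p = 0.0704), but did without control PeF 3, whose spread enters the fit (0.0253). The differences of IM from control were -0.31 at 22:00 (interval -0.88 to 0.26) and 0.22 at 10:00 (-0.35 to 0.79).

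With time, Cebpd fell 1.94-fold in untreated follicles (-0.95 ± 0.27, limma adjusted p = 0.00969) and 1.79-fold under RU (-0.84 ± 0.27, 0.0197). Without control PeF 3 the first was -0.69 (adjusted p = 0.0515), and the second lost its call without RU PeF 1 (0.0827) or RU UF 1 (0.112). Under IM it was -0.42 (interval -0.99 to 0.15, limma adjusted p = 0.252), and it passed with array weights (-0.64, 0.00305) and without the 3 dimmest arrays (-0.83, 0.0115). A dim probe set of Cebpd, 1368813_at beside 1387343_at, was above background on 1 of the 3 arrays of control PeF and of RU UF and passed in no comparison. Its difference was 0.58 with time in untreated follicles (interval -0.76 to 1.93) and 0.33 for RU at 22:00 (-1.01 to 1.68). With the mean over both tested probe sets, RU PeF lay 0.43 below control PeF (adjusted p = 0.499) and RU UF 1.03 below control PoF (0.0920). In the same fit Cebpd differed by -0.18 with time in untreated follicles (adjusted p = 0.707) and by -0.78 under RU (0.0955).

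**Figure D3:**
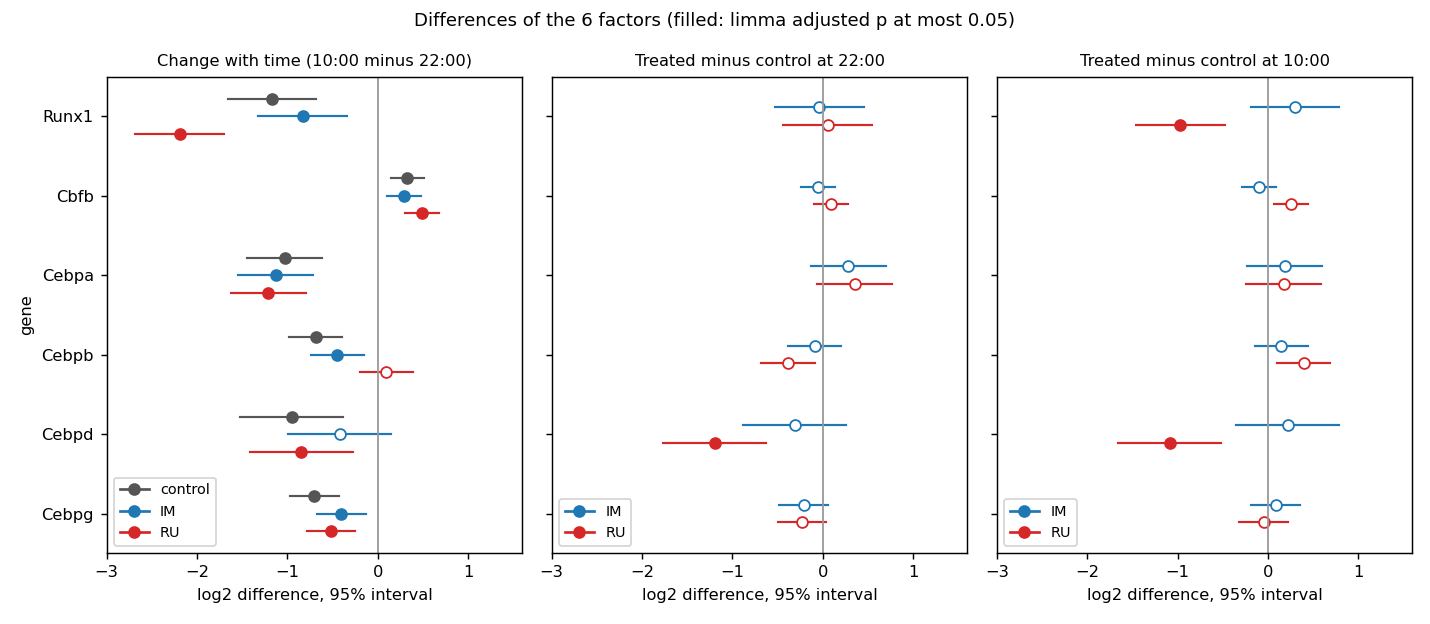
Log2 differences (x axis) of the 6 factors (y axis) with 95% limma intervals, n = 3 per group, for the change from 22:00 to 10:00 within each treatment (left) and for each drug against control at 22:00 (middle) and 10:00 (right). Filled points passed at an adjusted p of 0.05. Cebpd lay lower in RU PeF than in control PeF (-1.19), and Cebpd and Runx1 lay lower in RU UF than in control PoF (-1.09 and -0.97), and no IM point is filled in the middle and right panels. With the deposited signals the points of Cebpa, Cebpb, Cebpd and Cebpg for the untreated time course lie above 0.

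Marker lists of other cells moved beside these results. In RU PeF against control PeF, where 4.75% of all genes were lower, 3 of 7 smooth muscle and pericyte markers were lower (Myh11, Tagln and Cnn1). Their list had a summed log2 level of 7.67 to 7.81 against 8.81 to 8.84. Among leukocyte markers 1 of 7 was lower (Cd74) and 6 did not pass, with a median difference of -0.20 over the 7. Their sum was 7.92 to 8.37 against 8.83 to 9.14. Of the endothelial markers 2 of 6 were lower (Tek and Emcn), at 9.31 to 9.59 against 9.85 to 9.98. At 10:00, where Runx1 and Cebpd were lower in RU UF, 2 of 7 granulosa and 1 of 3 theca markers were higher, as were 4.53% of all genes. None of the smooth muscle, leukocyte and endothelial lists had a called member there, where 5.45% of all genes were lower. Their summed levels in RU UF and control PoF were 8.56 to 8.87 and 9.26 to 9.59 for smooth muscle, 8.10 to 8.75 and 8.34 to 9.84 for leukocytes, and 8.77 to 9.35 and 9.38 to 9.48 for endothelium. In RU UF against IM UF, 2 of 7 smooth muscle markers (Tagln and Des) and 2 of 7 leukocyte markers (Lyz2 and S100a9) were lower. There 0 of 6 endothelial markers passed, and 4.38% of all genes were lower. Summed levels in IM UF were 9.69 to 9.91 for smooth muscle, 9.22 to 9.70 for leukocytes and 9.15 to 9.21 for endothelium. The part of these lists in the results of Cebpd, Runx1 and Cbfb was not tested. These are whole follicles, where fewer cells of a type and less RNA per cell cannot be told apart.

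In the untreated time course 24.4% of all genes were higher and 19.7% lower. Of 7 smooth muscle markers 4 were higher and 1 lower, and 0 of 7 leukocyte, 0 of 3 oocyte and 2 of 6 endothelial markers passed (the last lower). Granulosa markers were split at 3 higher and 3 lower of 7, as were theca markers at 1 and 1 of 3. Among the rest, 1 of 2 erythrocyte genes was lower, and the 1 tested gene of the ovarian surface epithelium, Upk1b, was higher. Summed granulosa levels overlapped between RU PeF and control PeF (13.94 to 14.52 and 13.53 to 14.22). Those of theca overlapped as well (13.30 to 13.61 and 13.13 to 13.33). Granulosa sums were higher in RU UF (13.47 to 13.62) than in control PoF (13.21 to 13.38), without overlap. So were theca sums (13.75 to 13.85 and 13.64 to 13.69). Control PoF also did not overlap control PeF, lying lower for granulosa and higher for theca. These sums follow the brightest genes of a list. The median difference of the tested genes with time was -0.85 for granulosa and -0.55 for theca, opposite to the theca sum. RU UF overlapped IM UF in both lists (IM UF 13.17 to 13.54 for granulosa and 13.69 to 13.85 for theca). The part of granulosa and theca levels in the results was not tested.

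The scaling between arrays bore on the directions of the time course. With the deposited signals the median of all probe sets rose by 1.28 from control PeF to control PoF, and 4 members turned upward in raw terms (Cebpa 0.45, Cebpb 0.69, Cebpd 0.51 and Cebpg 0.78), while Runx1 lay at -0.08. Relative to that median, Runx1 was at -1.35, Cebpa at -0.82, Cebpd at -0.76, Cebpb at -0.59, Cebpg at -0.50 and Cbfb at 0.49. All 6 kept the sign they had relative to the median under quantile normalization and median scaling. The same held for 6 of 6 members in the RU comparisons with control. There the difference of Cebpd relative to the median was between -1.25 and -1.10 at 22:00 and between -1.08 and -1.07 at 10:00 over the 3 scalings, and that of Runx1 at 10:00 was between -0.99 and -0.95. With the deposited signals none of these RU differences passed, and with median scaling that of Cebpd at 22:00 did not pass either.

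**Figure D4:**
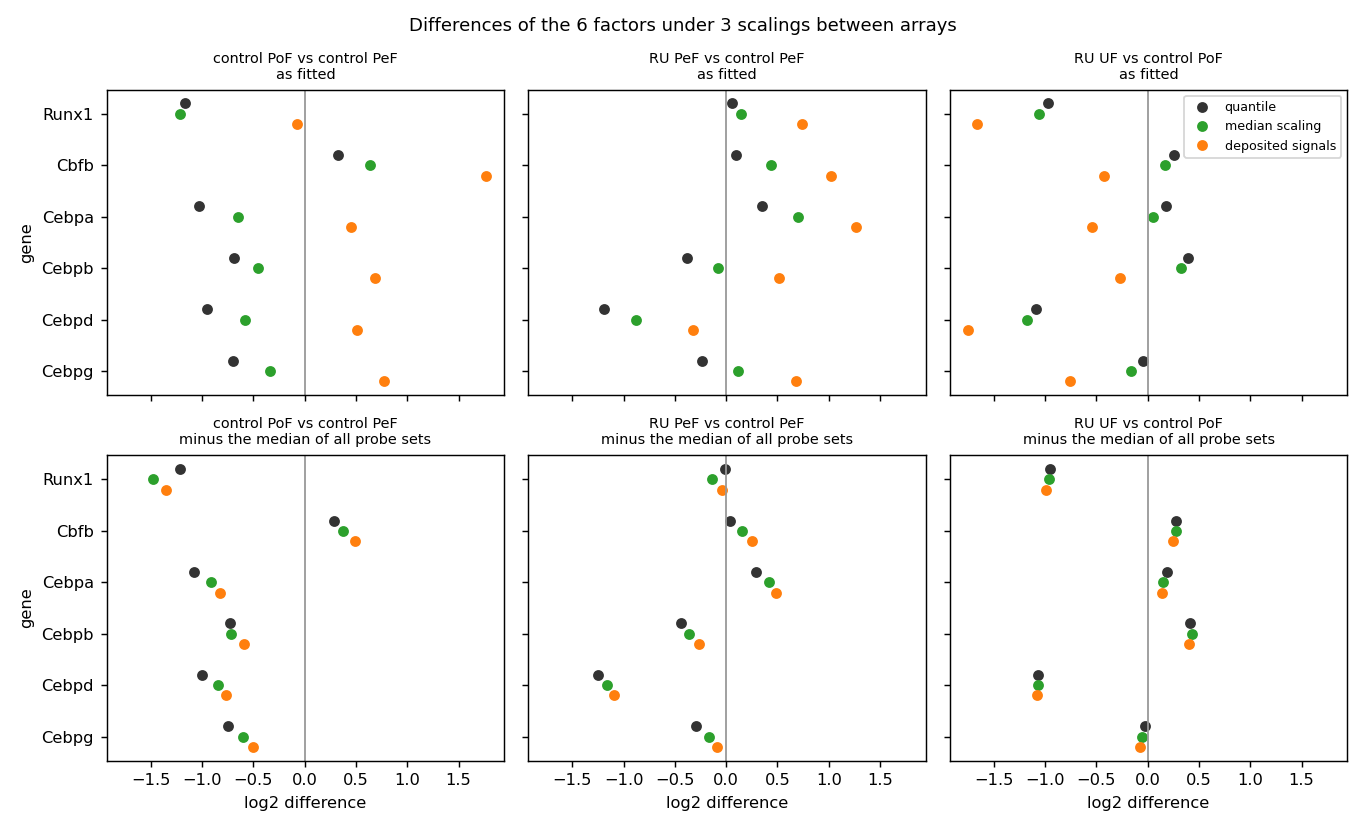
Log2 differences (x axis) of the 6 factors (y axis) in 3 comparisons under quantile normalization, median scaling and the deposited signals. The top row gives them as fitted and the bottom row after subtracting the median of all probe sets. In the top left panel 4 members change sign with the deposited signals, and in the bottom row all 6 keep 1 sign in each comparison.

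The other genes of the family and its cofactors were 20, with 17 tested. They included corepressors of the Groucho/TLE family, which bind Runx proteins, the ETO-family corepressors Runx1t1, Cbfa2t2 and Cbfa2t3, and Atf4 and Ddit3, which pair with C/EBP proteins. In untreated follicles 6 fell with time, 0 rose and 11 did not pass, with a median of -0.29 against 0.08 for all genes, of which 24.4% rose and 19.7% fell. Tle4 fell from 9.44 ± 0.36 (SD, n = 3) to 5.63 ± 0.40 (log2 difference -3.81 ± 0.30, SE, limma adjusted p = 5.37e-08). Tle1 fell 6.86-fold, from 7.90 ± 0.42 to 5.12 ± 0.09 (-2.78 ± 0.25, limma adjusted p = 2.27e-07). Tle3 and Hipk2, a kinase that acts on Runx1, fell by 0.93 ± 0.19 and 1.44 ± 0.31. With median scaling 3 of the list fell and with the deposited signals 1 did (Tle4, -2.37), and Tle3 stood 0.54 higher there, 0.84 below the median of all genes.

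Under IM 7 of the 17 fell with time and 0 rose, where 18.4% of all genes fell and 19.4% rose. Tle4 fell 9.13-fold and Tle1 5.16-fold, and Atf4 and Wwtr1 (TAZ, a coactivator that binds Runx proteins) fell by 0.83 ± 0.17 and 0.99 ± 0.24. Under RU 8 fell and 1, Cbfa2t3, rose, where 21.4% of all genes fell and 21.3% rose. With median scaling these counts were 5 and 0 under IM and 8 and 1 under RU, and with the deposited signals 2 and 0, and 1 and 1.

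Tle4 was the cofactor that moved with RU at both times. Its log2 level was 8.39 ± 0.55 in RU PeF, 2.07-fold below control PeF (-1.05 ± 0.30, limma adjusted p = 0.0376). It was 7.22 ± 0.20 in RU UF, above control PoF by 1.58 ± 0.30 (0.00219). The change of its RU difference between the times was 2.64 ± 0.42 (limma adjusted p = 0.00157). The 22:00 call was lost with median scaling (-0.74, adjusted p = 0.175) and without the 3 dimmest arrays (-0.85, 0.0501). Of all genes, 4.75% were lower and 3.78% higher in RU PeF, and 5.45% lower and 4.53% higher in RU UF, than in control. No other gene of this list passed for RU against control, and 0 of 17 passed for IM against control at either time. RU UF also exceeded IM UF in Tle4, Tle2 and Cbfa2t3, by 1.23 ± 0.30, 1.61 ± 0.37 and 2.29 ± 0.48, and 3.49% of all genes were higher there. The change of the RU difference was also called for Ddit3, at -1.53 ± 0.40 (limma adjusted p = 0.0385).

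Of the 12 genes listed as tied to Runx or Cbfb in follicles, 11 were tested. In untreated follicles 4 rose and 3 fell (24.4% and 19.7% of all genes), with a median of 0.23 against 0.08 for all genes. Fabp6, a bile acid binding protein, rose 13.2-fold (3.73 ± 0.38, limma adjusted p = 9.68e-07) and the transporter Abcb1a 5.77-fold (2.53 ± 0.33). Wnt4, a ligand of ovarian development, rose 8.11-fold (3.02 ± 0.48). In control PeF, Fabp6, Abcb1a and Wnt4 were each above background on 2 of 3 arrays. Ptgs2, the inducible cyclooxygenase, fell 205-fold (-7.68 ± 0.83, limma adjusted p = 1.83e-06).

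Under RU the same list had 2 members higher and 1 lower of 11 at 22:00 (3.78% and 4.75% of all genes), and 4 higher and 0 lower at 10:00 (4.53% and 5.45%). The median at 10:00 was 1.58, against -0.04 for all genes. At 22:00 the metallothionein Mt1 was 5.99-fold lower in RU PeF (-2.58 ± 0.29, limma adjusted p = 3.05e-05), with Abcb1a 2.79-fold higher (1.48 ± 0.33, 0.0116) and the prostaglandin D synthase Ptgds 4.57-fold higher (2.19 ± 0.60, 0.0348). In control PeF, Ptgds ran from 2.96 to 6.03 and was above background on 2 of 3 arrays. At 10:00, where Runx1 was lower, RU UF exceeded control PoF in Abcb1a (1.95 ± 0.33, limma adjusted p = 0.00110), Wnt4 (2.06 ± 0.48, 0.0109), the luteinizing hormone receptor Lhcgr (2.55 ± 0.64, 0.0186) and the Wnt inhibitor Sfrp4 (2.09 ± 0.56, 0.0271). These 4 were higher with the deposited signals too, by 1.21, 1.31, 1.87 and 1.71, and did not pass there. Sfrp4 was above background on 1 of 3 arrays of control PoF. No gene of the list passed for IM against control. RU against IM gave 1 lower gene at 22:00 (Mt1, -1.97 ± 0.29) and 2 higher at 10:00 (Abcb1a and Lhcgr).

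With time, 4 of the 11 rose and 2 fell under IM (19.4% and 18.4% of all genes), and 7 rose and 2 fell under RU (21.3% and 21.4%). Wnt4 was at background on all arrays of IM PeF and rose at least 17.6-fold to IM UF. Under RU, Mt1 rose 13.9-fold (3.80 ± 0.29, limma adjusted p = 3.26e-08). The change of the RU difference passed for Mt1 (3.27 ± 0.41, 0.000312) and Wnt4 (2.55 ± 0.67, 0.0403), both higher at 10:00. Wnt4 was above background on 2 of 3 arrays of control PeF and of RU PeF.

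Of the 12 genes listed as tied to C/EBP proteins, 10 were tested, with Ptgs2 and Cyp11a1 shared with the list before. In untreated follicles 1 rose and 6 fell (24.4% and 19.7% of all genes), with a median of -1.35 against 0.08 for all genes. The vascular growth factor Vegfa rose 3.79-fold (1.92 ± 0.19, limma adjusted p = 9.68e-07). The inhibin subunit Inha fell 3.49-fold (-1.80 ± 0.19, 1.28e-06) and aromatase, Cyp19a1, fell 23.2-fold (-4.53 ± 0.49, 1.98e-06). With the deposited signals 3 of the 10 fell and 2 rose.

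Under RU 1 member of this list was higher and 1 lower at 22:00 (3.78% and 4.75% of all genes), and 4 were higher and 1 lower at 10:00 (4.53% and 5.45%), with medians of 0.45 and 0.23 against 0.06 and -0.04 for all genes. Star, which brings cholesterol into mitochondria for steroid synthesis, was 1.86-fold higher in RU PeF (0.90 ± 0.14, limma adjusted p = 0.000895) and 3.86-fold higher in RU UF (1.95 ± 0.14, 5.88e-07). The prolactin receptor Prlr was 1.82-fold lower in RU PeF (-0.87 ± 0.15, limma adjusted p = 0.00212) and 1.96-fold higher in RU UF (0.97 ± 0.15, 0.000489). Prlr thus lay below control at 22:00 and above it at 10:00, and the change of its RU difference was 1.84 ± 0.22 (limma adjusted p = 0.000266). Cyp19a1 was 10.7-fold higher in RU UF than in control PoF (3.42 ± 0.49, 0.000244), and Vegfa was 1.81-fold lower (-0.86 ± 0.19, 0.00960). With the deposited signals Prlr stood 0.04 higher at 22:00, 0.79 below the median of all genes, and no member passed at that time. No gene of this list passed for IM against control.

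With time, 1 of the 10 rose and 6 fell under IM (19.4% and 18.4% of all genes), and 3 rose and 5 fell under RU (21.3% and 21.4%). The cytokine Il6 was at background on all arrays of RU UF and fell at least 6.83-fold from RU PeF. The change of the RU difference also passed for Star (1.05 ± 0.20, limma adjusted p = 0.00602) and Cyp19a1 (2.81 ± 0.70, 0.0301). RU against IM gave Star higher and Prlr lower at 22:00, and Star, Cyp19a1 and Prlr higher at 10:00.

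The genes whose centred log2 profiles over the 18 samples lay closest to each member were named by the root mean square difference, which also takes in differences of array quality. For Runx1 these were S100a10 (0.31), Zfp143 (0.32) and Gpc4 (0.33), against a median of 0.95 over 10375 genes. For Cebpd they were Lama5 (0.31), Habp4 (0.35) and Plpp3 (0.35), against 0.85, and for Cebpa Nfix, Usp3 and Peg12 (0.23 each), against 0.75. Cebpb was closest to Senp3 (0.12), Cdc40 (0.16) and Rbm17 (0.16), and Cebpg to Api5 (0.12), Ndfip2 (0.12) and Nelfa (0.12), against medians of 0.55 and 0.54. For Cbfb they were Ccndbp1 (0.11), Tmem230 (0.12) and Mrps21 (0.13), against 0.51. The members with small values also varied least themselves, with an SD over samples of 0.23 for Cbfb and 0.28 for Cebpb, against 0.84 for Runx1.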

How the data were processed

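Each sample's total RNA gave biotin-labelled cRNA for 1 Affymetrix array, per the labels' protocols. The deposited values are intensity, linear signals per probe set that go no lower than 1. The submitters' processing notes name MAS5 without settings. Here the signals were quantile-normalized and, with a pseudocount of 2.8 (their 20th percentile), put on the log2 scale. A fold on this scale understates changes of dim genes. After leaving out 57 control probe sets, 18155 of 31099 probe sets above their array's median on at least 3 arrays were tested. Background is the brightest of 27 unspiked control probe sets on an array, and an "at least" fold takes the lowest signal above it on each dim array.

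Limma 3.58.1 in R 4.3.3 was fitted to 6 group means over all 18 samples with a variance trend (12 residual and a median of 5.76 prior degrees of freedom) and Benjamini-Hochberg adjustment at 0.05 within each of 11 comparisons. An exact two-sided permutation test of 3 against 3 samples cannot go below p = 0.1. The test was checked on simulated data. Members, lists, motifs and the naming rule (all members, up to 4 called genes of smallest adjusted p for each list and comparison, and the 3 nearest profiles) were chosen with earlier results of these data known. A few other called list genes are named where a count rests on them. Promoter windows came from RefSeq for 6 members, with none used for Cebpd. Alternatives covered scaling, pseudocount, filter, samples in the fit, array weights, dim arrays, replicate block, variance trend, probe set choice and each sample left out. The number of arrays limits the precision. Python 3.11.15 and matplotlib 3.10.9 drew the plots.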

Additional observations from a re-analysis of the deposited data

Results flagged for a closer look

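The difference of RU from control changed between the times for Cebpb, by 0.78 ± 0.20 (SE, limma adjusted p = 0.0335) from 22:00 to 10:00. All 3 RU samples lay below control at 22:00 and all 3 above it at 10:00, where 25% and 36.2% of all probe sets did not overlap. With the deposited signals the change was -0.79. Cebpb was the only member whose drug effect differed between the times by the test of that difference, apart from the second probe set of Runx1 (-1.35 ± 0.34, 0.0324). The call rests on 7 of the 12 samples in the comparison, as given above, and on the scaling, the filter and the variance trend. Its cause was not tested.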

How the results depend on the processing

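Over 6 members and 11 comparisons (66 results, 23 called), both other pseudocounts changed no call. The fit with the replicate number as a block (replicate block) gave the same 23 calls, with 6 members called in control PoF against control PeF. The labels do not tie the numbers to animals, so whether same-numbered samples are paired is not known. The deviations correlated at over 0.1 in 1 of 45 same-numbered pairs and in 5 of 90 other pairs, which cannot settle it.

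Members called were fewer with the deposited signals: 1 (control PoF vs control PeF), 0 (RU PeF vs control PeF), 0 (RU UF vs control PoF), 0 (IM UF vs IM PeF), 1 (RU UF vs RU PeF), 0 (RU UF vs IM UF) and 0 (change of the RU difference). With median scaling they were 3, 0, 1 and 3 for control PoF vs control PeF, RU PeF vs control PeF, IM UF vs IM PeF and RU UF vs RU PeF, and 0 for the change of the RU difference. Array weights gave 1 for IM PeF vs control PeF, 2 for RU PeF vs control PeF, 4 for RU UF vs control PoF, 3 for RU PeF vs IM PeF and 2 for the change. Without the 3 dimmest arrays the last 3 were 4, 1 and 2. Both settings also called Cebpd lower in IM UF than in IM PeF (-0.64 and -0.83), and the call of array weights in IM PeF vs control PeF was Cebpa, higher (0.50). Fitting only the groups compared gave 0 for RU PeF vs control PeF and 3 for IM UF vs IM PeF. Without the variance trend IM UF vs IM PeF gave 3 and the change 0, and without the filter the change gave 0. The call of Cbfb in RU UF vs IM UF was lost with median scaling, with the deposited signals, with the mean of all probe sets and without the variance trend. With the mean of all probe sets, RU PeF vs control PeF gave 0, RU UF vs control PoF 1, RU UF vs IM UF 1, RU UF vs RU PeF 3 and the change 2. In control PoF vs control PeF that setting called neither Cbfb (limma adjusted p = 0.512) nor Cebpd (0.707). Leaving out 1 sample gave 2 to 5 for IM UF vs IM PeF, 0 to 1 for RU PeF vs control PeF and for RU PeF vs IM PeF, 0 to 2 for RU UF vs control PoF and 0 to 2 for the change. The shares of all probe sets called under these settings are not given here. The counts therefore do not tell a change of the members from one of the whole array.

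Reversed values were those of Cbfb with the mean of its probe sets (-0.16, -0.51 and -0.29 for the 3 time courses) and, with the deposited signals, Cebpa 0.45, Cebpb 0.69, Cebpd 0.51 and Cebpg 0.78 in the untreated time course and Cebpb -0.79 for the change of the RU difference. The cause of these changes was not tested, beyond the shift of all probe sets given above.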

Other observations

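Runx3 and Cebpe, the other measured members of the families, were too dim to be tested. Runx3 was above background on all 3 arrays of RU UF, at a log2 level of 4.51 ± 0.72 (SD, n = 3), and on 0 of 3 arrays of control PoF, at 2.46 ± 0.17. Cebpe was above background on 2 arrays of RU PeF and on 0 of control PeF. Mmp13, a collagenase tied to Runx proteins, was above background on 3 arrays of RU PeF and on 0 of RU UF. These genes were picked after their values were seen.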
